A study of Mus musculus with 11 samples.

Results

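The Bcl2 family and a few cell death genes that work beside it were followed across 3 groups of mouse brain cell cultures. They comprise 9 genes: the anti-apoptotic Bcl2, Bcl2l1 and Mcl1, the pore-forming Bax and Bak1, the BH3-only genes Bcl2l11 and Bbc3, the mitochondrial receptor gene Bnip3, and Phlda3. Members were the probe sets that the array annotation assigns to exactly 1 of these genes, which gave 25 of the 45101 probe sets on the array and covered 8 of the 18194 genes with a probe set of their own. Bax had no such probe set and was not analysed here. Of the 25 member probe sets, 15 reached a signal of 200 on at least 3 of the 11 arrays and entered the tests, which covered 18568 probe sets in all, and each of the 8 genes kept at least 1. The tests cover the 15 that passed this filter and not all members.

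The first group was CKO oligodendrocytes (3 arrays), from mice with both Myrf alleles floxed and a cre allele at 1 copy of Olig2 (MRF fl/fl; Olig2 wt/cre). Myrf encodes a transcription factor that oligodendrocytes need to switch on myelin genes. The second was control oligodendrocytes (4 arrays) from littermates with a single floxed Myrf allele and the same cre (MRF wt/fl; Olig2 wt/cre), so these controls also carried cre at Olig2. The third was oligodendrocyte progenitors (OPC, 4 arrays), labelled as control with no genotype given. Day 7 postnatal brains supplied all cells, which were immunopanned on PDGFRα after microglia had been removed on a lectin. Oligodendrocytes then had 4 days without PDGF in T3 (thyroid hormone, 40 ng/ml), while progenitors were kept with PDGF at 10 ng/ml for 6 days. Culture time and medium therefore cannot be told apart in any comparison with progenitors, and cre in this design acts in every cell that has expressed Olig2. The labels do not say whether the arrays of a group are independent cultures or mice. The p-values thus measure only how these arrays spread, and that spread may be technical.

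Cells commit to mitochondrial apoptosis when the pore-forming proteins Bax and Bak1 open the outer mitochondrial membrane. Bcl2, Bcl2l1 (Bcl-xL) and Mcl1 hold the pore formers in check, and BH3-only proteins such as Bcl2l11 (Bim) and Bbc3 (Puma) release or activate them. Many oligodendrocytes die soon after they leave the progenitor stage, and the transcription factor Tfeb and Bbc3 act together in that death in the mouse brain. Bnip3 sits on mitochondria, marks them for removal by autophagy and is a known target of hypoxia signalling. Phlda3 encodes a small lipid-binding protein that competes with Akt for the membrane and is a known target of p53.

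The targeted gene checks the labels. Myrf (probe set 1439506_at) had signals of 2848.6, 1904.4 and 2223.4 in CKO oligodendrocytes, against 7374.0, 6613.5, 7517.4 and 6215.0 in control oligodendrocytes. Every CKO array lay below every control array, although the difference of -1.58 ± 0.58 (log2, SE) had an adjusted p of 0.16 in the fit across all arrays. Progenitors had Myrf signals of 752.1, 6848.4, 1135.0 and 970.5, so progenitor array 2 stood with the control oligodendrocytes. That array also stood apart in the summed signal of 13 cell cycle genes, 24670 against 85660 to 108100 on the other progenitor arrays. Progenitor arrays 1 and 4 had Gapdh 5′ to 3′ probe ratios of 0.332 and 0.12, while the other 9 arrays ran from 1.15 to 1.41, a ratio that is known to fall when RNA is degraded or labelling stops short. Member counts against progenitors are therefore also given without array 2 and without arrays 1 and 4, as are gene list counts and named genes where these arrays ended a call or moved a value by over 1.5 times. Between arrays of a group, the correlation of log2 values was 0.958 to 0.970 for CKO oligodendrocytes, 0.937 to 0.976 for control oligodendrocytes and 0.816 to 0.973 for progenitors. Of 8 measured myelin genes, 4 were lower and none higher in CKO than in control oligodendrocytes, and 7 rose in control oligodendrocytes relative to progenitors. Both oligodendrocyte groups also carried astrocyte transcripts. The summed signal of 9 measured astrocyte genes was 86060 to 92440 in CKO oligodendrocytes, 56450 to 77260 in control oligodendrocytes and 5328 to 10740 in progenitors, and Gfap alone reached 14658 to 17212 in oligodendrocytes against 61.8 to 100.3 in progenitors. The 9 microglial and 6 endothelial marker genes had no probe set past the filter, with highest signals of 147.3 and 282.8.

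Between CKO and control oligodendrocytes no member passed the test. Phlda3 came nearest: it lay 2.35-fold lower in CKO oligodendrocytes with no overlap of arrays, and its adjusted p of 0.0539 just missed the 0.05 threshold. In limma, 0 of the 15 member probe sets were called higher and 0 lower in CKO oligodendrocytes, against 5.48% of all probe sets called (2.34% higher and 3.14% lower), and 1 member probe set, that of Phlda3, had an unadjusted p under 0.05. The CKO and control arrays did not overlap for 3 member probe sets, those of Phlda3, Bak1 and Bcl2l1 (1420887_a_at), against 29.1% of all probe sets. The median log2 difference over the 15 was 0.124, beside 0.03 over all probe sets. A fit with the replicate number as a block held only the CKO and control arrays numbered 1 to 3, so that control array 4 and the progenitors were left out as well. There 2 member probe sets were called higher, those of Bcl2 and Bcl2l11 (1456005_a_at), and Phlda3 lower, against 20.1% of all probe sets. Without progenitor array 2, or without progenitor arrays 1 and 4, Phlda3 alone was called, against 9.4% of all probe sets in each case, and so it was with only the CKO and control arrays in the fit, against 13.7% of all. These counts of arrays limit the precision, and a p-value above the threshold does not show that levels were equal.

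Control oligodendrocytes differed from progenitors in more of the members. Phlda3, Bnip3, Bbc3, 1 probe set of Bcl2l1 and 1 of Mcl1 rose in control oligodendrocytes relative to progenitors, and Bcl2l11 fell. In such bulk samples, more cells of a type and more RNA per cell cannot be told apart. That made 5 member probe sets higher and 1 lower of 15, against 53.3% of all probe sets called (27% higher and 26.3% lower). The Bcl2l1 probe set among them, 1420887_a_at, had passed the filter only through the oligodendrocyte arrays. Arrays did not overlap for 5 of the 15, against 43.7% of all, and the median member difference was 0.089 beside -0.006 over all probe sets. Without progenitor array 2 the count was 5 higher and 3 lower (60.8% of all called), and without progenitor arrays 1 and 4 it was 6 higher and 0 lower (43.3%).

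Set against progenitors, CKO oligodendrocytes had higher levels of Phlda3, Bnip3, Bbc3, Bak1, Bcl2l1 (1420887_a_at) and Mcl1 (1416881_at), with none called lower. That was 6 of 15 higher and 0 lower, against 50.6% of all probe sets called (26.4% higher and 24.1% lower), with 5 not overlapping beside 49.6% of all. Here too Bcl2l1 (1420887_a_at) was included only through its oligodendrocyte signals. Without progenitor array 2 the count was 5 higher and 1 lower (59.2% of all called), and without arrays 1 and 4 it was 4 higher and 0 lower (41.9%). The 2 comparisons with progenitors use the same progenitor arrays, so their values are given side by side and are not independent. In both, the share of members called stood below the share of all probe sets called.

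**Figure D1:**
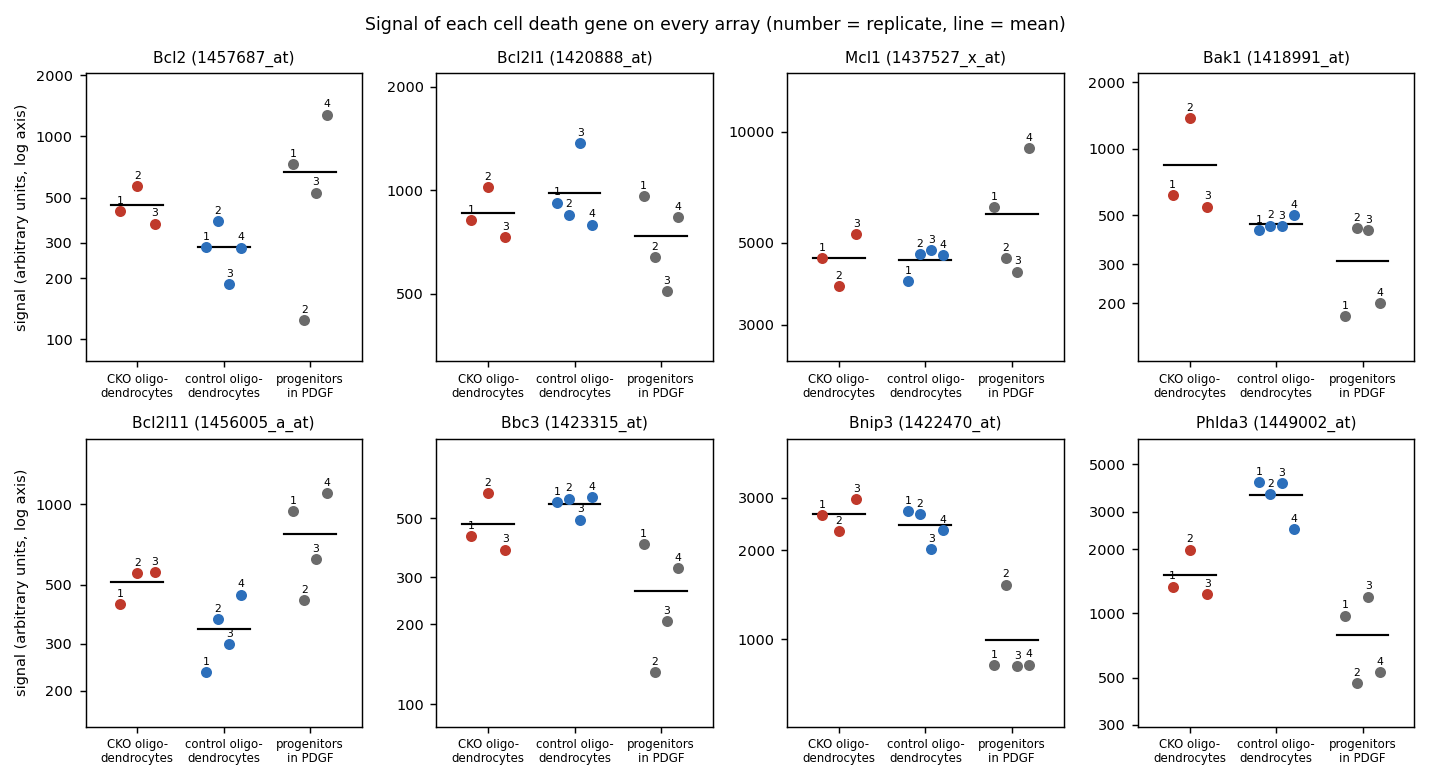
MAS 5.0 signal (log scale) of 8 cell death genes on each array, with a numbered point per array, a line at the group mean and 1 probe set per gene, for CKO oligodendrocytes (3 arrays), control oligodendrocytes (4) and progenitors (4). Phlda3 lay between 1231.8 and 1991.3 on the CKO arrays, below the 2481.7 to 4121.4 of the control arrays, while Bnip3 was level in both oligodendrocyte groups and lower in progenitors.

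**Figure D2:**
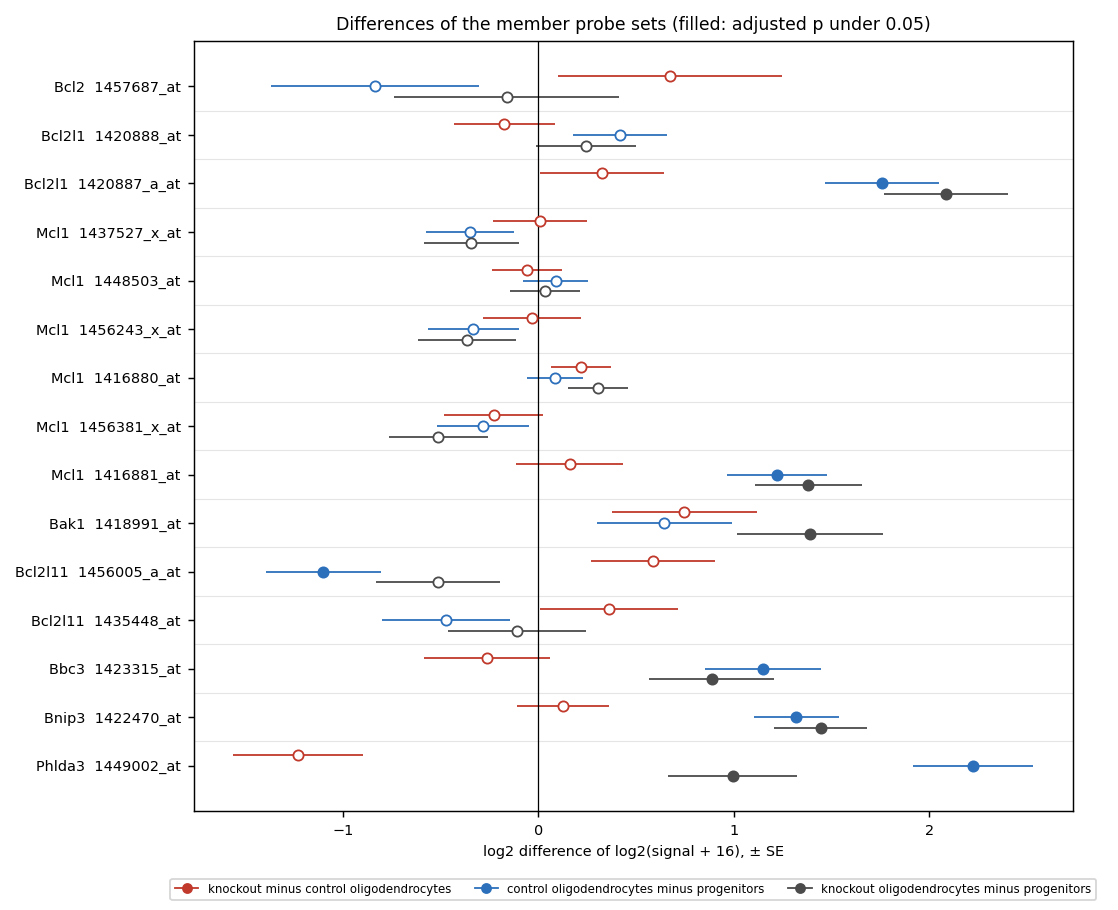
Log2 differences of the 15 member probe sets past the filter, with standard errors as bars, for CKO (knockout) minus control oligodendrocytes, control oligodendrocytes minus progenitors and CKO oligodendrocytes minus progenitors; filled points passed an adjusted p of 0.05. No point of the first comparison is filled, while the Phlda3, Bnip3, Bbc3, Bcl2l1 (1420887_a_at) and Mcl1 (1416881_at) points are filled in both comparisons with progenitors.

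The plot of signals by array shows the spread within each group, and the plot of log2 differences shows which probe sets of 1 gene part company. The genes are described below by role, beginning with the anti-apoptotic members. All differences are on the log2(signal + 16) scale with their standard error, and signals are compared only within a probe set, since different probe sets bind with different strength.

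Bcl2, the founding anti-apoptotic member (chr1:106538176-106714290 in GRCm38.p6), had 5 probe sets, of which 1 passed the filter. Probe set 1457687_at had signals of 429.0, 570.2 and 372.2 in CKO oligodendrocytes and 283.7, 382.4, 188.0 and 283.2 in control oligodendrocytes, against 728.0, 125.0, 527.9 and 1278.6 in progenitors. CKO and control ranges overlapped only because the highest control array, at 382.4, exceeded the lowest CKO array, at 372.2. The CKO minus control difference was 0.67 ± 0.57 with an adjusted p of 0.605, and in the block fit of arrays 1 to 3 it was 0.69 with an adjusted p of 0.0356. Without control array 4 alone it was also 0.69, with an adjusted p of 0.664. The progenitor arrays spread over a wider range than both oligodendrocyte groups together, with array 2 the lowest of all 11 and array 4 the highest. Control oligodendrocytes minus progenitors gave -0.84 ± 0.53 (adjusted p = 0.203). Without progenitor array 2 that difference was -1.46 (adjusted p = 0.00172), and without progenitor arrays 1 and 4 it was 0.08 (adjusted p = 0.906), so its size and its direction rested on which progenitor arrays were kept. CKO oligodendrocytes minus progenitors gave -0.16 ± 0.57 (adjusted p = 0.83), which was -0.79 (adjusted p = 0.0576) without progenitor array 2 and 0.75 (adjusted p = 0.243) without progenitor arrays 1 and 4. The other 4 Bcl2 probe sets stayed at or below 245.8 on every array.

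Bcl2l1, which encodes the anti-apoptotic Bcl-xL (chr2:152758732-152833803), had 4 probe sets with 2 past the filter, and these did not move alike. Probe set 1420887_a_at had signals of 480.0, 451.2 and 443.9 in CKO oligodendrocytes and 382.9, 367.9, 330.6 and 369.3 in control oligodendrocytes, against 66.4, 175.2, 127.8 and 52.7 in progenitors. The 3 groups did not overlap at any point on this probe set. It was 3.39-fold higher in control oligodendrocytes than in progenitors (1.76 ± 0.29, adjusted p = 0.000573) and 4.24-fold higher in CKO oligodendrocytes than in progenitors (2.09 ± 0.32, adjusted p = 0.00034). All 7 oligodendrocyte arrays and no progenitor array reached the filter of 200. This probe set thus entered the tests only through the groups where it was high, and its folds rest on dim progenitor signals. CKO minus control was 0.33 ± 0.32 (adjusted p = 0.659) in the fit where all 3 groups share an estimate of spread, and with only the CKO and control arrays in the fit the same difference had an adjusted p of 0.157. The SDs within these groups were 19.1 and 22.4 signal units. Probe set 1420888_at had signals of 820.8, 1019.7 and 732.2 in CKO oligodendrocytes and 920.9, 850.5, 1370.8 and 794.4 in control oligodendrocytes, against 959.9, 640.6, 508.8 and 835.3 in progenitors. Its groups overlapped throughout, with a control minus progenitor difference of 0.42 ± 0.24 (adjusted p = 0.158) and a CKO minus control difference of -0.18 ± 0.26 (adjusted p = 0.794). Without progenitor arrays 1 and 4 the control minus progenitor difference of this probe set was 0.73 (adjusted p = 0.0335). The annotation used here does not say which transcripts each probe set covers.

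Mcl1, a short-lived anti-apoptotic protein (chr3:95656944-95663179), was the only member whose 6 probe sets all passed the filter, and its signal was high in all 3 groups. Probe set 1437527_x_at had signals of 4541.5, 3817.8 and 5287.2 in CKO oligodendrocytes and 3935.7, 4663.2, 4783.3 and 4624.5 in control oligodendrocytes, against 6260.4, 4555.5, 4179.6 and 9020.5 in progenitors. CKO and control arrays lay within one range, and progenitor arrays 1 and 4 were the highest. Across the 6 probe sets the CKO minus control difference ran from -0.23 to 0.22, and none was called. In the fit over all 11 arrays only 1416881_at passed the threshold against progenitors; with array weights 1437527_x_at (-0.475 for CKO and -0.497 for control oligodendrocytes) and 1456243_x_at (-0.499 for CKO and -0.48 for control oligodendrocytes) also passed, as lower, in both comparisons. It had signals of 1400.2, 2230.4 and 1213.9 in CKO oligodendrocytes and 1625.6, 1484.4, 1312.8 and 1196.4 in control oligodendrocytes, against 594.9, 706.6, 768.2 and 369.7 in progenitors. All 7 oligodendrocyte arrays lay above all progenitor arrays, 2.33-fold for control oligodendrocytes (1.22 ± 0.26, adjusted p = 0.00224) and 2.61-fold for CKO oligodendrocytes (1.38 ± 0.28, adjusted p = 0.00185). The other 5 Mcl1 probe sets had control minus progenitor differences of -0.35 to 0.09 and CKO minus progenitor differences of -0.51 to 0.30, none of them called, so probe sets of 1 gene disagreed. For 2 of them, leaving out 1 array gave a call in CKO oligodendrocytes minus progenitors: without CKO array 3 the difference of 1416880_at was 0.45 (adjusted p = 0.046), and without progenitor array 3 that of 1456381_x_at was -0.68 (adjusted p = 0.039). In that comparison 1456381_x_at was called under 2 of 22 alternative settings, with a lowest adjusted p of 0.0217.

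Bak1, the pore former measured here (chr17:27019812-27028627), was highest in CKO oligodendrocytes. Probe set 1418991_at had signals of 617.6, 1375.3 and 547.4 in CKO oligodendrocytes and 430.4, 449.5, 446.0 and 500.6 in control oligodendrocytes, against 174.8, 437.2, 429.0 and 199.8 in progenitors. Every CKO array exceeded every control array, but CKO array 2 stood far above the other CKO arrays. The CKO minus control difference was 0.75 ± 0.37 (adjusted p = 0.323) and was 0.34 without CKO array 2. Against progenitors, CKO oligodendrocytes were 2.62-fold higher (1.39 ± 0.37, adjusted p = 0.00931). That call ended without CKO array 2 (0.98, adjusted p = 0.0518) and without progenitor arrays 1 and 4 (0.82, adjusted p = 0.0716). Control oligodendrocytes minus progenitors gave 0.65 ± 0.35 (adjusted p = 0.134), or 0.07 without progenitor arrays 1 and 4. It passed with array weights (1.07, adjusted p = 0.00612) and with only these 2 groups and no progenitor array 2 (0.84, adjusted p = 0.0351). The progenitor arrays fell into a low pair, arrays 1 and 4, and a pair near the control level. The second Bak1 probe set, 1425716_s_at, which did not pass the filter, showed the same high CKO array 2, with signals of 68.0, 467.4 and 101.9 in CKO oligodendrocytes and 92.3 to 104.8 in control oligodendrocytes, against 2.1 to 50.2 in progenitors. CKO array 2 was the highest CKO array for 9 of the 15 member probe sets (60%), beside 35% of all probe sets. Several of the 9 were probe sets of Mcl1, so they stand for fewer genes.

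Bcl2l11 encodes the BH3-only protein Bim (chr2:128126038-128162547), which is known to be induced by FoxO factors when survival signals fall. Of its 5 probe sets 2 passed the filter, and in the fit over all arrays it was the only member called lower in control oligodendrocytes than in progenitors. Probe set 1456005_a_at had signals of 422.8, 550.6 and 557.1 in CKO oligodendrocytes and 235.4, 372.2, 299.6 and 458.7 in control oligodendrocytes, against 941.7, 438.1, 621.5 and 1100.5 in progenitors. Control oligodendrocytes were 2.15-fold lower than progenitors (-1.10 ± 0.29, adjusted p = 0.00847), with the highest control array just above progenitor array 2. Without progenitor arrays 1 and 4 the difference was -0.63 (adjusted p = 0.0858). CKO oligodendrocytes lay between the other groups, with a CKO minus control difference of 0.59 ± 0.32 (adjusted p = 0.363), or 0.74 in the block fit of arrays 1 to 3 (adjusted p = 0.0248). Without control array 4 alone it was 0.74 too, with an adjusted p of 0.285. CKO minus progenitors was -0.51 ± 0.32 (adjusted p = 0.192), and -0.75 (adjusted p = 0.0349) without progenitor array 2. Probe set 1435448_at had signals of 367.8, 419.2 and 294.0 in CKO oligodendrocytes and 220.3, 290.3, 258.9 and 338.9 in control oligodendrocytes, against 589.9, 220.0, 262.6 and 639.5 in progenitors. Here progenitor arrays 1 and 4 were high and arrays 2 and 3 lay among the control arrays, and the control minus progenitor difference of -0.47 ± 0.33 had an adjusted p of 0.24. Without progenitor array 2 it was -0.73 (adjusted p = 0.0494).

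Bbc3 encodes the BH3-only protein Puma, a direct target of p53 (chr7:16308398-16318334). Its only probe set, 1423315_at, had signals of 428.9, 623.3 and 381.4 in CKO oligodendrocytes and 576.5, 593.5, 494.5 and 599.7 in control oligodendrocytes, against 401.1, 132.2, 205.8 and 325.5 in progenitors. All control arrays exceeded all progenitor arrays, while the lowest CKO array fell below the highest progenitor array. Control oligodendrocytes were 2.22-fold higher than progenitors (1.15 ± 0.30, adjusted p = 0.00737), a call kept under all 23 alternative settings. CKO oligodendrocytes were 1.85-fold higher than progenitors (0.89 ± 0.32, adjusted p = 0.0379), a call kept under 10 of 23 settings. It ended without CKO array 1 (adjusted p = 0.0704), CKO array 2 (0.156), progenitor array 2 (0.0613) or progenitor array 3 (0.0776), and without control arrays 1, 2 or 4 (adjusted p of 0.051 to 0.0517), which enter that comparison only through the shared spread. CKO minus control oligodendrocytes gave -0.26 ± 0.32 (adjusted p = 0.741), with CKO array 2 above all control arrays and the other CKO arrays below them.

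The mouse Bbc3 gene has 3 annotated start sites with a promoter entry in RefSeq (GRCm38.p6). The window of the third, from 250 bases before to 50 bases after the start, is shown because it is the only one of the 3 with CACGTG, the E-box that Tfeb is known to bind. It lies at chr7:16310181-16310480 on the plus strand and is written in lower case 5′ to 3′ with motif matches in capitals, namely CACGTG and the hypoxia response core ACGTG or GCGTG on either strand.
Bbc3 promoter: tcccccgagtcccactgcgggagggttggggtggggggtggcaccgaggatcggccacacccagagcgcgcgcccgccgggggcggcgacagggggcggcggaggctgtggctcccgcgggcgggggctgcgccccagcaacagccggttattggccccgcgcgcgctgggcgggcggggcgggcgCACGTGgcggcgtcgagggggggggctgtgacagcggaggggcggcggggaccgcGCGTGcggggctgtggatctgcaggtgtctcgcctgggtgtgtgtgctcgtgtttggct
CACGTG holds ACGTG on both strands, so the E-box match also counts as hypoxia core matches, and it begins 64 bases before the start. Of 32851 promoter windows of this length, 7.15% held CACGTG and 43.8% held a hypoxia core. Tfeb itself had signals of 402.8, 736.7 and 377.2 in CKO oligodendrocytes and 633.8, 582.3, 599.4 and 466.6 in control oligodendrocytes, against 293.1, 353.4, 222.3 and 141.2 in progenitors. All oligodendrocyte arrays exceeded all progenitor arrays, and Tfeb was 2.28-fold higher in control oligodendrocytes than in progenitors (adjusted p = 0.00519) and 1.95-fold higher in CKO oligodendrocytes than in progenitors (adjusted p = 0.023), a call that ended without progenitor arrays 1 and 4 (adjusted p = 0.0753). On the CKO arrays both Tfeb and Bbc3 were highest on array 2, which was the highest CKO array for 35% of all probe sets. Among the progenitors the 2 genes ran opposite on array 2, where Tfeb was highest (353.4) and Bbc3 lowest (132.2).

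Bnip3 (chr7:138890836-138909506) had 1 probe set, 1422470_at, with nearly the same level in both oligodendrocyte groups. Its signals were 2622.0, 2322.6 and 2975.9 in CKO oligodendrocytes and 2701.1, 2639.8, 2020.1 and 2335.5 in control oligodendrocytes, against 816.4, 1529.4, 811.1 and 820.1 in progenitors. Every oligodendrocyte array lay above every progenitor array, and progenitor array 2 lay between the other progenitor arrays and the oligodendrocytes. Control oligodendrocytes were 2.5-fold higher than progenitors (1.32 ± 0.22, adjusted p = 0.000557) and CKO oligodendrocytes 2.72-fold higher (1.44 ± 0.24, adjusted p = 0.000547), and both calls held under all 23 alternative settings. CKO minus control was 0.12 ± 0.24 (adjusted p = 0.847). The 9 astrocyte genes were called higher in the same 2 comparisons and the 13 cell cycle genes lower, and their part in the Bnip3 difference was not tested.

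The Bnip3 promoter is shown because hypoxia factors are known to act on this gene. With CACGTG counted on both strands, its window also had the most hypoxia core matches among those of the measured members. It lies at chr7:138909457-138909756 on the minus strand, with the same motifs in capitals.
Bnip3 promoter: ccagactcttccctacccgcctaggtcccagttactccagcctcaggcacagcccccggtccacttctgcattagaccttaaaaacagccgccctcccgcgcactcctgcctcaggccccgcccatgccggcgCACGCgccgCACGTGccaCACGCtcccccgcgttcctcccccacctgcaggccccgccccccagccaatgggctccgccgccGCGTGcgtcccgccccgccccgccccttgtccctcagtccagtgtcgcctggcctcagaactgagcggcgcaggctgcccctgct
It held 5 matches to the hypoxia core, 2 of them within the single CACGTG. The window of the first Bbc3 start held 4 matches and no CACGTG, so the lead of Bnip3 rests on this way of counting. Other known hypoxia targets did not share one direction. Of 20 on a list, 17 were measured. Between CKO and control oligodendrocytes 3 were higher and 1 lower, beside 5.48% of all probe sets called, with a median difference of -0.003. Pdk1, a kinase that inhibits pyruvate dehydrogenase, had signals of 900.2, 790.0 and 613.0 in CKO oligodendrocytes, against 213.7, 268.8, 95.4 and 362.7 in control oligodendrocytes (3.38-fold, adjusted p = 0.0174). Vegfa, the vascular growth factor, had signals of 923.0, 678.8 and 681.7 in CKO oligodendrocytes, against 355.6, 189.7, 249.1 and 409.7 in control oligodendrocytes (2.52-fold, adjusted p = 0.0396). The groups did not overlap for either gene, nor for Pfkfb4, a regulator of glycolysis, which was 2.12-fold lower in CKO oligodendrocytes (adjusted p = 0.0475). Against progenitors 7 of the 17 were higher and 3 lower in control oligodendrocytes, beside 53.3% of all probe sets called. In CKO oligodendrocytes 7 were higher and 2 lower, beside 50.6%. When progenitor array 2 was left out, 7 were higher and 6 lower in each comparison, beside 60.8% (control) and 59.2% (CKO) of all called. Without progenitor arrays 1 and 4, control oligodendrocytes had 8 higher and 2 lower (43.3% of all called). In that setting CKO oligodendrocytes had 8 higher and 1 lower (41.9%). Ddit4, an inhibitor of mTOR signalling, was 7.88-fold higher in control oligodendrocytes (adjusted p = 1.87e-05) and 6.62-fold higher in CKO oligodendrocytes (adjusted p = 6.48e-05) than in progenitors. The glycolytic gene Hk2 was 2.78-fold lower in control oligodendrocytes (adjusted p = 0.000205) and 2.16-fold lower in CKO oligodendrocytes (adjusted p = 0.00204).

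Phlda3 (chr1:135766085-135769134) showed the widest gap between CKO and control oligodendrocytes among the 15 member probe sets. Probe set 1449002_at had signals of 1335.1, 1991.3 and 1231.8 in CKO oligodendrocytes and 4121.4, 3630.2, 4068.6 and 2481.7 in control oligodendrocytes, against 975.6, 472.0, 1197.5 and 532.6 in progenitors. The groups fell in the order control, CKO, progenitor with no overlap between neighbours, although the lowest CKO array, at 1231.8, lay close to the highest progenitor array, at 1197.5. Control oligodendrocytes were 4.68-fold higher than progenitors (2.23 ± 0.31, adjusted p = 0.000174), a call kept under all 23 alternative settings. CKO oligodendrocytes were 1.99-fold higher than progenitors (0.99 ± 0.33, adjusted p = 0.0261), a call kept under 17 of 23 settings and ended by leaving out CKO array 2 (adjusted p = 0.117), progenitor array 4 (adjusted p = 0.063) or progenitor arrays 1 and 4 together (adjusted p = 0.0644). It also ended with only the compared groups in the fit (adjusted p = 0.0568), with those groups and no progenitor array 2 (0.0719), and in the block fit (0.172). CKO minus control oligodendrocytes gave -1.23 ± 0.33 with an adjusted p of 0.0539. Over 22 alternative settings that difference stayed between -1.44 and -1.10, with adjusted p from 0.000831 to 0.191, and it passed the threshold in 11 of them. In the block fit of arrays 1 to 3 it was -1.40 (adjusted p = 0.00485), a difference that it also had without control array 4 alone, with only the CKO and control arrays in the fit it was -1.23 (adjusted p = 0.00761), and with 1 probe set per gene the adjusted p was 0.0402. It also passed without control array 4 (adjusted p = 0.0462) or without progenitor array 2 (0.0206), 3 (0.0351) or 4 (0.0453). Of the 8 measured myelin genes, 4 were called lower in CKO than in control oligodendrocytes. The others, Mbp (-0.23), Cnp (-0.22), Cldn11 (-0.33) and Opalin (-1.92), were not called. Against progenitors, 7 of the 8 were called higher in control and 1 in CKO oligodendrocytes, with none lower. The part of these genes in the Phlda3 difference was not tested.

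The Phlda3 promoter window (chr1:135765835-135766134, plus strand) is shown for comparison, since the same search left it without capitals.
Phlda3 promoter: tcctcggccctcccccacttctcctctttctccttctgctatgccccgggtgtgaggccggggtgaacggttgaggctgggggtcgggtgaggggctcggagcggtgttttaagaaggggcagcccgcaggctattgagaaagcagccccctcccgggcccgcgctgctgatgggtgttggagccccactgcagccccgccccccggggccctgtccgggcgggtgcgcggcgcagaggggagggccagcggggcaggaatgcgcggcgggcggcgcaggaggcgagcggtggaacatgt
It held no full match to the Myrf motif CTGGCAC or CTGGTAC, the hypoxia core, CACGTG, the FoxO motif GTAAACA or the p53 half-site, all searched on both strands. The half-site was searched as RRRCWWGYYY (R = A or G, W = A or T, Y = C or T). The window's last bases, gaacatgt, begin as this half-site does, but the window ends there and later bases were not searched. Full matches were found in 7.1% (Myrf motif), 3.65% (FoxO motif) and 8.36% (p53 half-site) of the 32851 windows. Among the 14 windows of the 9 genes, the Myrf motif occurred once, as CTGGTAC 85 bases before the second start of Bcl2l1. GTAAACA occurred in the window of the first Bcl2l11 start and, on the other strand, in that of the second Bbc3 start. A match is a description of the letters only, and no match says nothing of factors that bind elsewhere.

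**Figure D3:**
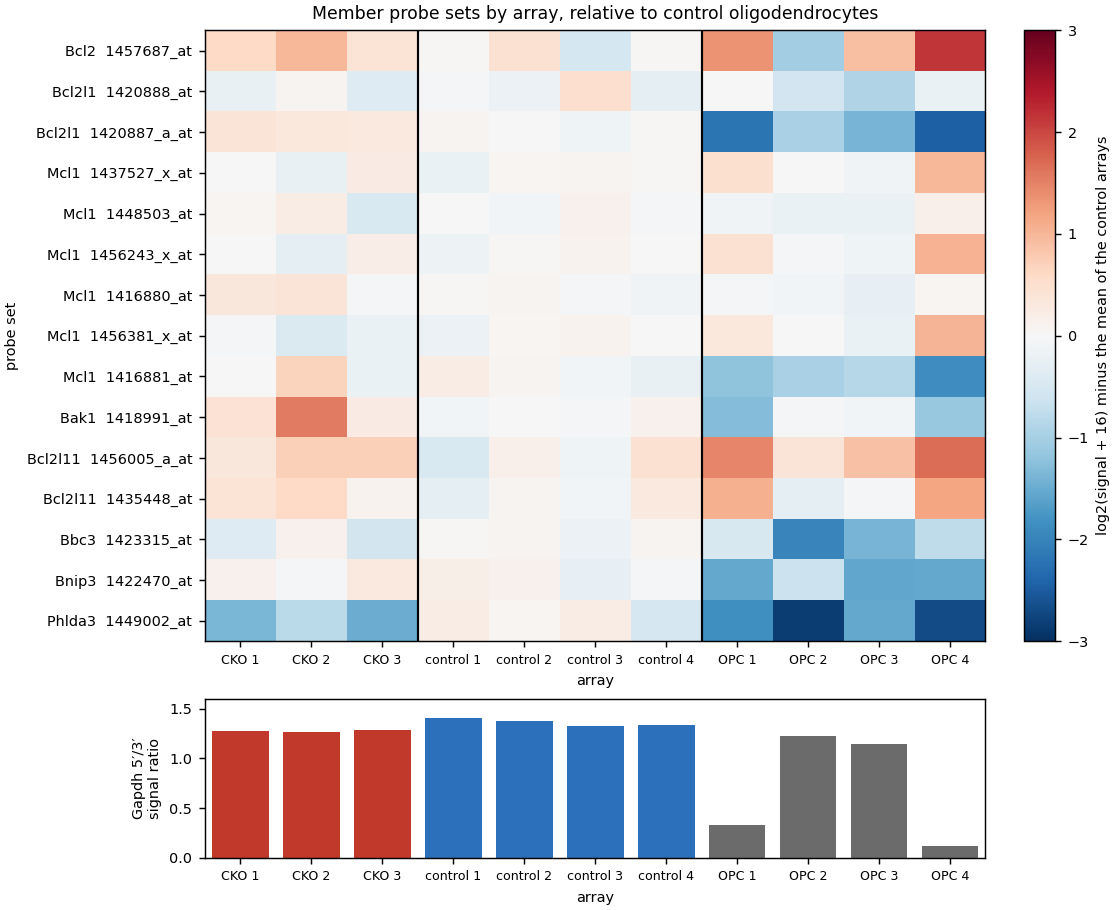
Log2(signal + 16) of the 15 member probe sets past the filter on each of the 11 arrays, as colour, minus the mean of the 4 control arrays (red above, blue below), with CKO arrays at the left, control arrays in the middle and progenitors (OPC) at the right; bars give each array's Gapdh 5′ to 3′ signal ratio. Progenitor arrays 1 and 4 were both above arrays 2 and 3 for 10 of the 15 probe sets, and CKO array 2 was the highest CKO array for 9.

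The plot of member probe sets by array shows that the progenitor arrays were not alike for many of these probe sets. Progenitor arrays 1 and 4 both exceeded arrays 2 and 3 for 10 of the 15 member probe sets (66.7%), beside 26.1% of all probe sets, and both lay below them for 3 (20%), beside 33.2% of all. The 10 were those of Bcl2, Bcl2l1 (1420888_at), Bbc3, both of Bcl2l11 and all of Mcl1 but 1416881_at. They stand for fewer genes than probe sets, and Mcl1 weighs most in this share. Those arrays carry the low Gapdh 5′ to 3′ ratios given above, whose part in the member values was not tested.

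Bmf rose and Bok fell in both oligodendrocyte groups relative to progenitors. In this and the following lists, each count against progenitors over all arrays stands beside the 53.3% (control) and 50.6% (CKO) of all probe sets called. Counts without progenitor array 2 stand beside 60.8% (control) and 59.2% (CKO), and those without progenitor arrays 1 and 4 beside 43.3% and 41.9%. Each count between CKO and control oligodendrocytes stands beside 5.48%. Of 11 further pro-apoptotic relatives, 6 were measured. Between CKO and control oligodendrocytes 0 were called in limma in either direction and 0 had an unadjusted p under 0.05 (median 0.058). Control oligodendrocytes had 2 higher and 3 lower than progenitors, and CKO oligodendrocytes likewise had 2 higher and 3 lower. Without progenitor arrays 1 and 4 the counts were 1 higher and 3 lower in control oligodendrocytes and 2 higher and 2 lower in CKO oligodendrocytes, and without progenitor array 2 CKO oligodendrocytes also had 2 higher and 2 lower. Bmf, a BH3-only gene, had signals of 603.4, 534.2 and 469.4 in CKO oligodendrocytes and 411.8, 531.9, 1388.0 and 523.9 in control oligodendrocytes, against 101.2, 292.6, 98.5 and 127.7 in progenitors, and was 4.16-fold higher in control oligodendrocytes than in progenitors (adjusted p = 0.00132). Bok, a pore-forming relative of Bax and Bak1, ran the other way, with signals of 142.7, 182.9 and 93.4 in CKO oligodendrocytes and 214.8, 145.2, 202.3 and 204.8 in control oligodendrocytes, against 1085.1, 469.0, 916.3 and 903.8 in progenitors. It was 4.00-fold lower in control oligodendrocytes (adjusted p = 0.000206) and 5.44-fold lower in CKO oligodendrocytes (adjusted p = 9.9e-05) than in progenitors. Bad, a BH3-only gene controlled by Akt phosphorylation, was 1.63-fold higher in control oligodendrocytes (adjusted p = 0.0206; 1.28-fold, adjusted p = 0.0916, without progenitor arrays 1 and 4), and Bnip2 was 2.16-fold lower (adjusted p = 0.00143). Over all arrays, Bad was also higher (2.13-fold, adjusted p = 0.00328) and Bnip2 lower (1.64-fold, adjusted p = 0.024) in CKO oligodendrocytes than in progenitors. The anti-apoptotic Bcl2l2 was the only measured gene of 5 further anti-apoptotic relatives and was 1.44-fold higher in control oligodendrocytes than in progenitors (adjusted p = 0.0231).

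Downstream of the mitochondria, 15 of 19 listed caspase, apoptosome and inhibitor genes were measured. Between CKO and control oligodendrocytes limma called 0, with 1 at an unadjusted p under 0.05. In the list 2 were higher and 7 lower in control oligodendrocytes than in progenitors, and 1 was higher and 6 lower in CKO oligodendrocytes than in progenitors. Leaving out progenitor arrays 1 and 4 left 1 higher and 5 lower in control oligodendrocytes, and likewise 1 higher and 5 lower in CKO oligodendrocytes. Leaving out progenitor array 2 gave 2 higher and 6 lower in CKO oligodendrocytes. Apaf1, the scaffold of the apoptosome, had signals of 351.7, 238.2 and 384.2 in CKO oligodendrocytes and 322.5, 360.4, 398.0 and 367.7 in control oligodendrocytes, against 1528.1, 718.4, 1205.4 and 1851.6 in progenitors. It was 3.36-fold lower in control oligodendrocytes (adjusted p = 0.000369) and 3.79-fold lower in CKO oligodendrocytes (adjusted p = 0.000346). Aifm1, a mitochondrial flavoprotein, was 2.49-fold lower in CKO oligodendrocytes than in progenitors (adjusted p = 0.000411), and the mitochondrial protease gene Htra2 was 2.02-fold lower in control oligodendrocytes than in progenitors (adjusted p = 0.00599). Neither fall was particular to its group. Aifm1 was also 1.81-fold lower in control oligodendrocytes (adjusted p = 0.00317). Htra2 was 1.8-fold lower in CKO oligodendrocytes (adjusted p = 0.0227), both given over all arrays only. The list had median differences of -0.011 for CKO minus control, -0.421 for control minus progenitors and -0.555 for CKO minus progenitors.

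The death receptor genes Tnfrsf21 and Fas rose in both oligodendrocyte groups relative to progenitors. Of 7 genes measured on that list, limma called 0 between CKO and control oligodendrocytes, with 2 at an unadjusted p under 0.05. Here 3 were higher and 0 lower in control oligodendrocytes relative to progenitors, while CKO oligodendrocytes had 2 higher and 0 lower. Leaving out progenitor array 2 added 1 lower gene in control oligodendrocytes and 1 higher gene in CKO oligodendrocytes. Without progenitor arrays 1 and 4, control oligodendrocytes had 2 higher and 0 lower, and CKO oligodendrocytes had 3 higher and 0 lower. Tnfrsf21 (death receptor 6) had signals of 3748.6, 3798.4 and 3547.7 in CKO oligodendrocytes and 5679.0, 6019.4, 3886.3 and 5562.5 in control oligodendrocytes, against 1837.4, 1692.2, 1520.0 and 1429.2 in progenitors. It was 3.21-fold higher in control oligodendrocytes than in progenitors (adjusted p = 1.72e-05) and 2.28-fold higher in CKO oligodendrocytes than in progenitors (adjusted p = 0.000302). Fas, another death receptor, was below 100 on every progenitor array and, set against a floor of 100, was at least 2.55-fold higher in control oligodendrocytes (adjusted p = 0.000364) and at least 3.55-fold higher in CKO oligodendrocytes (adjusted p = 0.000254). The astrocyte genes were called higher in the same comparisons, and their part in the Fas difference was not tested.

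Phlda3 and Bbc3 are known p53 targets, and other p53 targets and regulators were listed for comparison. Of 16 measured genes, limma called 0 between CKO and control oligodendrocytes and 1 had an unadjusted p under 0.05, with a median of -0.247 beside 0.03 over all probe sets. Control oligodendrocytes had 2 higher and 4 lower than progenitors, and CKO oligodendrocytes had 0 higher and 6 lower. When progenitor array 2 was left out the counts were 2 higher and 7 lower in control and 2 higher and 10 lower in CKO oligodendrocytes, and without progenitor arrays 1 and 4 they were 2 higher and 0 lower in control and 0 higher and 2 lower in CKO oligodendrocytes. Gadd45a, a DNA damage response gene, had signals of 354.5, 361.7 and 494.0 in CKO oligodendrocytes and 1064.8, 887.6, 1024.7 and 1032.6 in control oligodendrocytes, against 63.7, 875.8, 247.1 and 69.1 in progenitors. CKO arrays all lay below control arrays, yet the CKO minus control difference of -1.29 had an adjusted p of 0.333, and progenitor array 2 again stood near the control oligodendrocytes. It was 5.09-fold higher in control oligodendrocytes than in progenitors (adjusted p = 0.00739), which was 8.38-fold without progenitor array 2 and 2.1-fold (adjusted p = 0.0484) without progenitor arrays 1 and 4. Eda2r, a TNF receptor relative, was 3.38-fold lower in control oligodendrocytes than in progenitors (adjusted p = 0.01), with progenitor array 2 inside the control range. Its difference was 5.12-fold without that array, and the call ended without progenitor arrays 1 and 4 (1.84-fold, adjusted p = 0.114). Over all arrays Eda2r was also lower in CKO oligodendrocytes than in progenitors (2.83-fold, adjusted p = 0.0318). Trp53inp1 was 2.40-fold lower in CKO oligodendrocytes than in progenitors (adjusted p = 0.00198). In control oligodendrocytes Trp53inp1 was 1.88-fold lower (adjusted p = 0.00726), a call that did not hold without progenitor arrays 1 and 4. Phlda1, the measured relative of Phlda3, had signals of 1507.0, 1618.6 and 1352.8 in CKO oligodendrocytes and 6179.7, 5466.4, 10000.6 and 5777.2 in control oligodendrocytes, against 5424.2, 900.5, 8269.5 and 6302.1 in progenitors. CKO and control arrays did not overlap, and the difference of -2.15 had an adjusted p of 0.0597.

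Over all arrays Ddit3 and Atf3, transcription factor genes of the stress response, rose in both oligodendrocyte groups relative to progenitors, and Asns fell. Of 10 measured stress response genes that can act above the BH3-only genes, limma called 0 between CKO and control oligodendrocytes, with 2 at an unadjusted p under 0.05. On this list 3 were higher and 4 lower in control oligodendrocytes relative to progenitors, while CKO oligodendrocytes had 4 higher and 3 lower. Without progenitor arrays 1 and 4 the counts were 3 higher and 3 lower in control and 4 higher and 1 lower in CKO oligodendrocytes. Ddit3, which encodes CHOP, was 3.46-fold higher in control oligodendrocytes than in progenitors (adjusted p = 0.000701), and Atf3, below 100 on every progenitor array, was at least 2.04-fold higher (adjusted p = 0.000173). In CKO oligodendrocytes, over all arrays only, Ddit3 was 2.33-fold higher than in progenitors (adjusted p = 0.01) and Atf3 at least 2.08-fold higher (adjusted p = 0.000277). Asns, which makes asparagine, was 2.74-fold lower in control oligodendrocytes (adjusted p = 0.00127) and 2.28-fold lower in CKO oligodendrocytes (adjusted p = 0.00648; 1.74-fold, adjusted p = 0.0539, without progenitor arrays 1 and 4).

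Irs2 rose and Irs1 fell in CKO relative to control oligodendrocytes; both encode adaptors of the insulin and IGF receptors. Of 11 measured genes of survival signalling, FoxO and Tfeb these were the only 2 called, with a median difference of 0.129. Irs2 had signals of 1727.8, 1844.4 and 1551.7 in CKO oligodendrocytes, against 379.6, 386.1, 255.0 and 542.7 in control oligodendrocytes and 740.4, 1048.6, 353.4 and 290.4 in progenitors, a CKO over control difference of 4.37-fold (adjusted p = 0.00818). Irs1 had signals of 2137.2, 1815.2 and 2613.7 in CKO oligodendrocytes, against 5523.2, 5161.1, 3260.1 and 5101.0 in control oligodendrocytes and 1809.2, 1824.9, 1800.1 and 1866.6 in progenitors, and was 2.15-fold lower in CKO than in control oligodendrocytes (adjusted p = 0.00747). CKO and control arrays did not overlap for either gene. Control oligodendrocytes had 3 of the 11 higher and 2 lower than progenitors, and CKO oligodendrocytes had 3 higher and 1 lower. Without progenitor arrays 1 and 4 these counts were 2 higher and 4 lower in control and 1 higher and 3 lower in CKO oligodendrocytes. Irs1 was 2.54-fold higher in control oligodendrocytes than in progenitors (adjusted p = 0.000178), and Irs2 was 3.13-fold higher in CKO oligodendrocytes than in progenitors (adjusted p = 0.00521). Igf1r was 2.92-fold lower in control oligodendrocytes (adjusted p = 0.000118) and 1.84-fold lower in CKO oligodendrocytes (adjusted p = 0.00595) than in progenitors, and Akt1 was 1.76-fold lower in control oligodendrocytes than in progenitors (adjusted p = 0.00503).

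**Figure D4:**
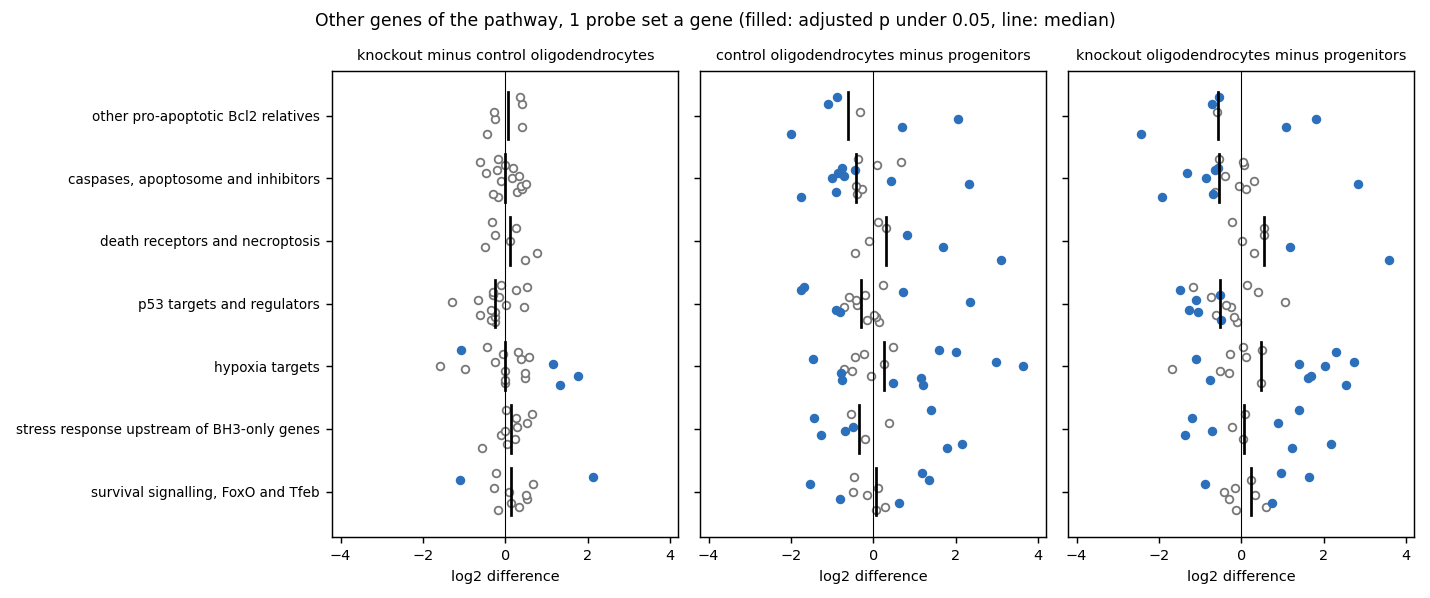
Log2 difference of each measured gene in 7 pathway lists, a point per gene and a thick line at the list median, with panels for CKO (knockout) minus control oligodendrocytes, control oligodendrocytes minus progenitors and CKO oligodendrocytes minus progenitors; filled points passed an adjusted p of 0.05. The first panel has filled points in the hypoxia list (3 higher, 1 lower) and the survival signalling list (1 higher, 1 lower).

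The plot of pathway lists shows these differences gene by gene, and its panels against progenitors share the same progenitor arrays.

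The genes whose levels followed each member most closely over the 11 arrays were ranked by Pearson correlation of log2(signal + 16) among 10061 genes, using each gene's brightest probe set past the filter. These correlations are a description over arrays that fall into 3 groups, which alone can align many genes. Phlda3 was followed most closely by Mal (r = 0.96), a myelin membrane gene, and then by Pdlim2 (0.956) and Tmc6 (0.955). Bnip3 was followed by Plekhb1 (0.989), Tpd52 (0.988) and Ptpdc1 (0.985), and Mcl1 by Napg (0.977), Fam8a1 (0.968) and Ppp3cb (0.966). Bcl2l11 was followed by Chchd6 (0.965), Cbarp (0.955) and Lasp1 (0.954), Bak1 by Numbl (0.949), Slc25a23 (0.943) and Borcs6 (0.937), and Bcl2l1 by Slc66a1 (0.947), Lipa (0.938) and Bin3 (0.911). Bcl2 was followed by Tmtc3 (0.94), Rasa2 (0.937) and Mn1 (0.933), and Bbc3 by Slc5a3 (0.939), Erf (0.936) and Dnajc16 (0.935). No gene followed 2 of the members among these 24, and without progenitor array 2 the 24 correlations ran from 0.887 to 0.99.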

How the data were processed

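RNA from 11 samples was hybridised to Affymetrix Mouse 430 2.0 arrays, 1 per sample. The deposited signal intensity of each probe set is on a linear scale from MAS 5.0 in GCOS 1.3, scaled by the authors to a target of 500, per the submitters' processing notes and the labels' protocols. On each array the trimmed mean was 500 and 15100 to 17130 probe sets had a signal of at least 200. Probe sets were named from the platform annotation, which gave 1 symbol for 34958, several for 932 and none for 9211; 34754 were updated by Entrez identifier to GRCm38.p6 names. Probe sets with a signal of 200 on 3 arrays were kept, 64 control probe sets were left out, and log2(signal + 16) was fitted in limma 3.58.1 (R 4.3.3; lmFit, eBayes with trend) with 1 mean per group over all 11 arrays. P-values were Benjamini-Hochberg adjusted over 18568 probe sets, with a threshold of 0.05. The script was tested on simulated data.

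The named genes were every member probe set, Myrf and the 3 most correlated genes per member. From each list and comparison, genes were named among the up to 2 called per direction with the largest difference. Some of these are not described. Phlda1, Gfap and the other single marker genes were added after their values were seen. The members and lists were chosen with earlier results of these data known. Deviations from the group means correlated at 0.228, 0.238 and 0.238 between CKO and control arrays of the same number, all above 0.1, so by that rule alone these numbers were taken to pair the arrays. Pairs of different number ran from -0.389 to 0.362 (CKO array 3 with control array 4), and the labels state no shared litter or day. Alternatives were another pseudocount, filter, normalization, samples in the fit, replicate block, array weights, 1 probe set per gene, and leaving out arrays. Promoter windows are RefSeq's. Array numbers limit the precision.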

Additional observations from a re-analysis of the deposited data

Results flagged for a closer look

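Bnip3 on progenitor array 2 stood apart from its group. Its signal was 1529.4, against 816.4, 811.1 and 820.1 on the other progenitor arrays, and the gap to the nearest of them made up 0.983 of the group's range, above the 95% critical value of Dixon's test for 4 arrays. It was the only 1 of 30 groups of 4 arrays among the member probe sets past this value, and chance alone passes about 1 group in 20. Without that array the Bnip3 difference from progenitors was 1.67 (log2) for CKO oligodendrocytes and 1.54 for control oligodendrocytes, both called. The same array had a Myrf signal of 6848.4 and the lowest cell cycle level among the progenitors, and their part in the Bnip3 value was not tested.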

How the results depend on the processing

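Of the member results under the alternatives, 911 kept their direction and side of the threshold, 31 passed it newly, 22 no longer passed it and 29 changed sign with neither value called. The number of probe sets called between CKO and control oligodendrocytes, 1018 (435 higher, 583 lower) over all arrays, was 2542 (1272 higher, 1270 lower) with only the compared groups in the fit, 3733 with the replicate block, which also leaves out control array 4 and the progenitors (20.1% of all), 3401 with array weights, 1746 without progenitor arrays 1 and 4, and 512 to 1746 when 1 array was left out (512 without CKO array 3, 527 without CKO array 2, 533 without CKO array 1, 600 without control array 1, 622 without control array 3, 1746 without progenitor array 2). For control oligodendrocytes minus progenitors, 9899 became 5433 with 1 probe set per gene, where 10069 were tested, and 8198 to 11293 when 1 array was left out. For CKO oligodendrocytes minus progenitors, 9388 became 5498 with the replicate block, 5098 with 1 probe set per gene and 6990 to 10985 when 1 array was left out. Same-number correlations with progenitors ran from -0.143 to 0.176 for control oligodendrocytes and from -0.104 to 0.102 for CKO oligodendrocytes, so those numbers were not taken as pairs; the block left the control comparison at 8219.

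Sign changes for CKO minus control all concerned Mcl1: when 1 array was left out, 1416881_at ran from -0.097 to 0.338, 1437527_x_at from -0.108 to 0.126, 1448503_at from -0.203 to 0.142 and 1456243_x_at from -0.147 to 0.088; array weights gave 0.014 for 1448503_at and quantile normalization 0.019 for 1456243_x_at. For control oligodendrocytes minus progenitors, leaving out progenitor arrays 1 and 4 gave 0.177 for Bcl2l11 1435448_at, 0.077 for Bcl2 1457687_at and 0.041, 0.083 and 0.098 for Mcl1 1437527_x_at, 1456243_x_at and 1456381_x_at. For CKO oligodendrocytes minus progenitors it gave 0.54 for Bcl2l11 1435448_at, 0.751 for Bcl2 1457687_at and 0.047 and 0.051 for Mcl1 1437527_x_at and 1456243_x_at; the replicate block, which leaves out progenitor array 4, gave 0.126 for Bcl2l11 1435448_at and 0.276 for Bcl2 1457687_at, as leaving out that array alone did; array weights gave -0.023 for Bcl2l1 1420888_at. With only the compared groups and without progenitor array 2, an alternative added after seeing the data, Mcl1 1448503_at gave -0.007. Leaving out 1 array gave -0.365 to 0.126 for Bcl2l11 1435448_at, -0.114 to 0.231 for Mcl1 1448503_at and -0.79 to 0.276 for Bcl2 1457687_at. The causes were not tested. Signals near the filter of 200 limit what can be measured.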

Other observations

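Progenitor array 2 differed from the other progenitor arrays in the myelin gene Mag as well. Mag, a myelin adhesion protein gene, had a signal of 2956.9 there, against 107.2, 622.1 and 144.9 on the other progenitor arrays, 638.7, 593.2 and 95.3 in CKO oligodendrocytes and 11996.8 to 14250.9 in control oligodendrocytes. The 8 measured myelin genes together did not set array 2 apart from array 3. Their summed signal was 57560 on progenitor array 2 and 43350 on array 3, against 15070 on array 1 and 19480 on array 4. Mki67, a marker of dividing cells, had a signal of 2615.4 on progenitor array 2, against 9455.6, 11835.8 and 15832.1 on the other progenitor arrays. It was at 63.1 to 116.2 in CKO oligodendrocytes and 222.3 to 748.5 in control oligodendrocytes. Mag and Mki67 were chosen after their values were seen.

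The smooth muscle genes Acta2 and Tagln, the only 2 of 9 mural and fibroblast markers past the filter, had a summed signal of 3232 to 4521 in CKO oligodendrocytes, 378.9 to 1757 in control oligodendrocytes and 131.4 to 417.2 in progenitors.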
